A study of Homo sapiens with 6 samples.

Results

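The 6 classical transcription factors of the epithelial-mesenchymal transition (EMT), ZEB1, ZEB2, SNAI1, SNAI2, TWIST1 and TWIST2, were examined in A375SM melanoma cells with and without a hairpin against PRAME. They were taken by gene symbol through the NCBI gene identifiers, 6 genes of 40895 in the files. Each of the 6 was among the 15954 genes that passed the filter on low counts and were tested. A375SM is a metastatic subline of the human melanoma line A375, and the labels give its genotype as WT in both groups. The 3 shCtrl libraries came from cells with a control short hairpin RNA and the 3 shPRAME libraries from cells with a hairpin against PRAME, all under the same batch label. The data come from a single cell line, and the labels state neither how many hairpins were used nor the time of harvest. Since they also do not say whether the libraries of a group came from separate cultures, the p-values below measure the spread between libraries alone, and that spread may be technical.

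ZEB1 and ZEB2 are large zinc finger and homeodomain repressors, SNAI1 (Snail) and SNAI2 (Slug) are smaller zinc finger repressors, and TWIST1 and TWIST2 are basic helix-loop-helix (bHLH) factors that bind DNA as dimers. In carcinomas these factors repress CDH1, the gene for E-cadherin, and other epithelial genes through E-box sequences in their promoters. Melanocytes arise from the neural crest, where several of the factors already act. In melanoma, ZEB2 and SNAI2 are known from differentiated cells and ZEB1 and TWIST1 from dedifferentiated, invasive cells.

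The ZEB mRNAs are textbook targets of the miR-200 microRNAs, which epithelial cells make and which are shown here because their sites set ZEB1 and ZEB2 apart from the other factors. Mature sequences are from RefSeq (GRCh38.p14), with the seed, bases 2 to 8, in capitals. The first 3 share one seed and the other 2 share another.
hsa-miR-200b-3p: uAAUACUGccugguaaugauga
hsa-miR-200c-3p: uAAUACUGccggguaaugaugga
hsa-miR-429: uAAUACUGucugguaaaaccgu
hsa-miR-200a-3p: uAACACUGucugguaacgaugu
hsa-miR-141-3p: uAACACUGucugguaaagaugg
The longest annotated 3′ UTR of each gene (GENCODE release 29) was searched for the 7-base complement of each seed. ZEB1 held 6 copies of CAGTATT and 3 of CAGTGTT in 2549 bases, and ZEB2 held 5 and 4 in 5370 bases. SNAI2 held 1 copy of CAGTATT, and neither motif was found in the 3′ UTRs of SNAI1, TWIST1 and TWIST2. Of 19128 genes with a 3′ UTR of any length, 16% held at least 1 CAGTATT and 18.3% at least 1 CAGTGTT. The first CAGTATT of each ZEB mRNA is printed with the 14 bases before it and the match in capitals.
ZEB1: ttgttttatcttatCAGTATT
ZEB2: gcactaccatacatCAGTATT
Mature microRNAs are not measured in polyA libraries. MIR200CHG, the host transcript of miR-200c and miR-141, had 1 count in 1 shCtrl library and none elsewhere, and MIR205HG had none in any library. A total of 0 allows up to 3 counts, or 0.0880 to 0.0973 CPM (counts scaled by library size) in a single library. The host transcript of miR-200c and miR-141 was thus near or below detection in both groups. The genes MIR200A, MIR200B and MIR429 were not in the files, and no transcript of their locus was examined.

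Promoter windows of TWIST2, whose mRNA was lost, and of ZEB1, whose mRNA rose, are shown for their sequence features. RefSeq windows were matched for 3 of the 6 genes (ZEB1, ZEB2 and TWIST2). The sequences are the 250 bases before an annotated start on the plus strand (GRCh38.p14). In the TWIST2 window, chr2:238847835-238848084, each CG dinucleotide is in capitals.
TWIST2: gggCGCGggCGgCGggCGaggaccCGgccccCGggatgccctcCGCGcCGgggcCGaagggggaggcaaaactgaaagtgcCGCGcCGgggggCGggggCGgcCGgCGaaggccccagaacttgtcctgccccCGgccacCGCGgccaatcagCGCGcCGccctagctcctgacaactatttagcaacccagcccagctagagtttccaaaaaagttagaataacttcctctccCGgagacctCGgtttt
It holds 26 CG dinucleotides, where the median of 35116 promoter windows is 11 and 80.4% hold fewer. In the first of the 7 ZEB1 windows, chr10:31318167-31318416, the E-box form that ZEB and Snail factors are known to prefer is in capitals.
ZEB1: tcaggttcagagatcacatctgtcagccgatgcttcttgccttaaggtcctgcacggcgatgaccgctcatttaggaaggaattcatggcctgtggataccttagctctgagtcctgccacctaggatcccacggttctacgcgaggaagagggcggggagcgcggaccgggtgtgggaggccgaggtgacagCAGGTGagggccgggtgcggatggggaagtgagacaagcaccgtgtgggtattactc
The search was for CAGGTG and its reverse complement CACCTG, which are forms of the general E-box CANNTG. The window holds 1, and 17.5% of all promoter windows hold at least 1. Of the 7 ZEB1 windows, 2 hold it. The TWIST2 and ZEB2 windows hold none, and CANNTG, present in 61.8% of all windows, occurs once in the ZEB2 window and not in that of TWIST2. Neither binding nor DNA methylation was measured in these libraries.

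PRAME mRNA was lower in each shPRAME library than in any shCtrl library, at 57.7, 57.8 and 53.8 against 166, 164 and 165 CPM. Its log2 fold change was -1.55 (adjusted p = 4.85e-17 by edgeR). CPM here and below carries the TMM factor that edgeR estimates for each library. Library totals lay between 30842788 and 34107332 counts. The groups differed at a large share of all genes: 74.4% of tested genes passed an adjusted p of 0.05 in edgeR, 37.7% higher and 36.8% lower in shPRAME. The groups did not overlap at 76.5% of tested genes, 38.7% higher and 37.8% lower. The median log2 fold change of all tested genes was 0.01 and the median of its absolute value 0.38. Ribosomal RNA genes took from 5.32% to 5.67% of counts in shCtrl and from 2.53% to 3.64% in shPRAME. The melanoma markers SOX10 (266 ± 7.95 CPM in shCtrl) and ERBB3 (322 ± 4.11 CPM) were abundant, while MLANA had 1 count in all libraries together, TYR none, and PMEL at most 11 counts in a library.

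ZEB1 mRNA was 1.30-fold higher in the knockdown cells, and ZEB2 mRNA 1.13-fold. ZEB1 (NCBI gene 6935, chromosome 10, 31318417 to 31529804, GRCh38) stood at 146, 148 and 157 CPM in the shCtrl libraries and at 201, 196 and 191 CPM in the shPRAME libraries. The groups were well apart, with a gap between them larger than the range within either. Its mean rose from 150.4 ± 6.27 to 196 ± 5.12 CPM (mean ± SD, n = 3 each), with a log2 fold change of 0.38 ± 0.0310 (SE) and an adjusted p of 5.38e-09 by edgeR. ZEB2 (gene 9839, chromosome 2, 144384081 to 144520119) stood at 30.4, 30.2 and 32.6 CPM in shCtrl and at 34.2, 34.2 and 37.1 CPM in shPRAME. The highest shCtrl library lay just under the lowest shPRAME libraries. ZEB2 rose from 31.1 ± 1.32 to 35.2 ± 1.65 CPM (log2 fold change 0.18 ± 0.0470 SE, adjusted p = 0.00235 by edgeR). Against a minimum fold of 1.2, ZEB1 passed (edgeR adjusted p = 0.000378) and ZEB2 did not (adjusted p = 1.00). In a bulk library, less RNA per cell and fewer cells with that RNA cannot be told apart, here and in all results below.

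Both Snail genes rose slightly. SNAI1 (gene 6615, chromosome 20, 49982980 to 49988886), which encodes the short-lived repressor Snail, stood at 21.8, 19.4 and 19.8 CPM in shCtrl and at 22.6, 23.4 and 23.2 CPM in shPRAME. Replicate 1 of shCtrl was close to the shPRAME libraries, yet the groups did not overlap. The change was 0.18 ± 0.0554 (SE) on the log2 scale (adjusted p = 0.00746 by edgeR). SNAI2 (gene 6591, chromosome 8, 48917598 to 48921429), which encodes Slug, a factor of neural crest and melanocyte precursor migration, stood at 50.7, 52.3 and 55.3 CPM in shCtrl and at 60.4, 61.0 and 60.5 CPM in shPRAME. The shPRAME libraries were nearly level with one another and above each shCtrl library. SNAI2 rose from 52.8 ± 2.29 to 60.6 ± 0.351 CPM, by 0.20 ± 0.0358 (SE) on the log2 scale (adjusted p = 7.70e-05 by edgeR). Neither gene passed against a minimum fold of 1.2 (edgeR adjusted p = 0.991 for SNAI1 and 1.00 for SNAI2). SNAI3, the least studied member of the Snail family, had 3 counts in the shCtrl libraries together and 5 in shPRAME and was not tested.

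The TWIST genes went opposite ways. TWIST1 (gene 7291, chromosome 7, 19113047 to 19117636), a bHLH factor of cranial mesoderm and neural crest, stood at 42.9, 40.9 and 39.8 CPM in shCtrl and at 59.2, 60.2 and 65.0 CPM in shPRAME. Each shPRAME library was far above the shCtrl range. TWIST1 rose from 41.2 ± 1.54 to 61.5 ± 3.11 CPM, 1.49-fold, which is 0.58 ± 0.0418 (SE) on the log2 scale (adjusted p = 1.24e-09 by edgeR) and the largest rise of the 6 genes. TWIST2 (gene 117581, chromosome 2, 238848085 to 238910534), known from dermal and other mesenchymal precursors, had 83, 91 and 85 counts in the shCtrl libraries. No shPRAME library had a count. The level was 2.67 ± 0.182 CPM in shCtrl, and against 3 counts over the shPRAME group it was at least 88.9-fold lower there (adjusted p = 7.09e-11 by edgeR). TWIST2 was 1 of 24 tested genes that had counts in each shCtrl library and none in any shPRAME library.

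**Figure D1:**
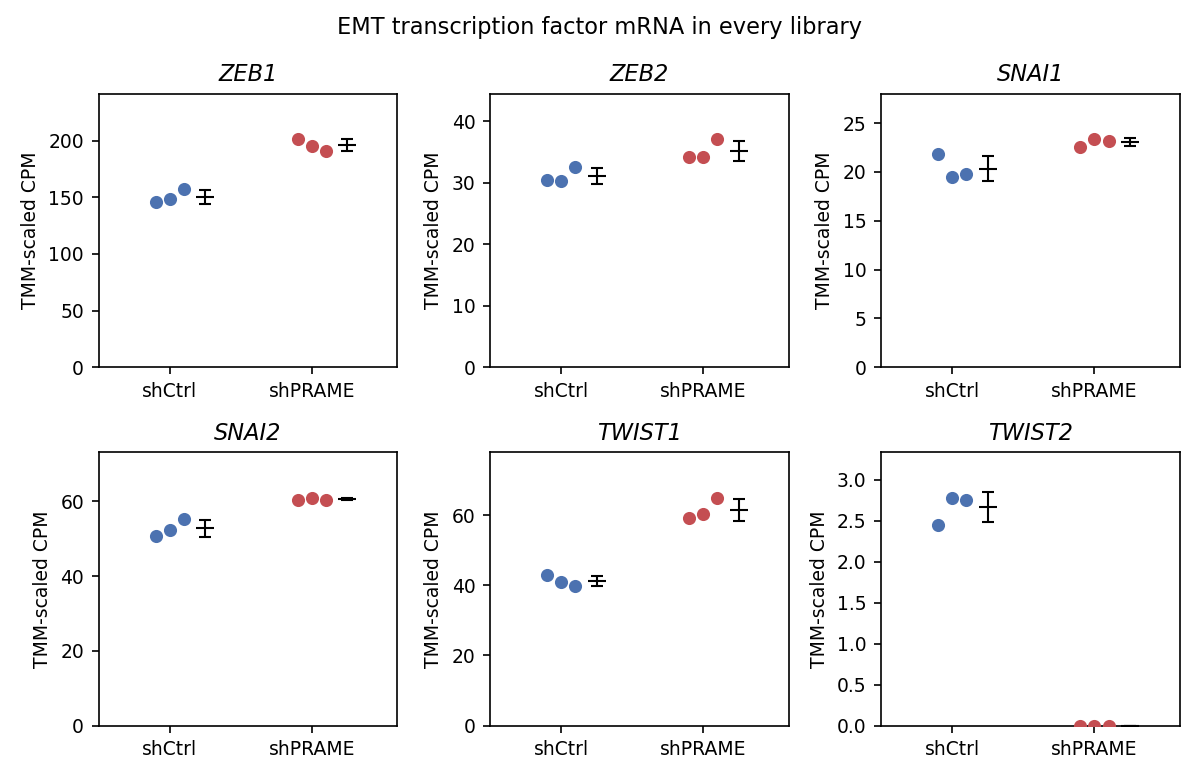
TMM-scaled CPM of the 6 factors in the 3 shCtrl (blue) and 3 shPRAME (red) libraries, with the mean and SD of each group in black; each panel has its own vertical axis, which starts at 0. ZEB1 and TWIST1 are clearly apart, ZEB2, SNAI1 and SNAI2 are apart by little, and TWIST2 is at 0 in the shPRAME libraries.

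Of the 6 factors, 5 passed as higher and 1 as lower, where 37.7% and 36.8% of all tested genes did so. The groups did not overlap at any of the 6, against 38.7% of tested genes apart with shPRAME higher and 37.8% with shPRAME lower. A passing call is thus common in these data, and the sizes separate the factors better than the calls do. The rises of ZEB2, SNAI1 and SNAI2 were below the median absolute change, with 73.7%, 73.7% and 70.8% of tested genes changing by more. ZEB1 was at the middle, with 49.8% changing by more, and TWIST1 was above it, with 34.3%. TWIST2 was the only one of the 6 to change at least 2-fold, as 18.6% of tested genes did while passing. The count of 5 higher and 1 lower was the same when any single library was left out, and it fell to 2 higher and 1 lower against a minimum fold of 1.2.

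**Figure D2:**
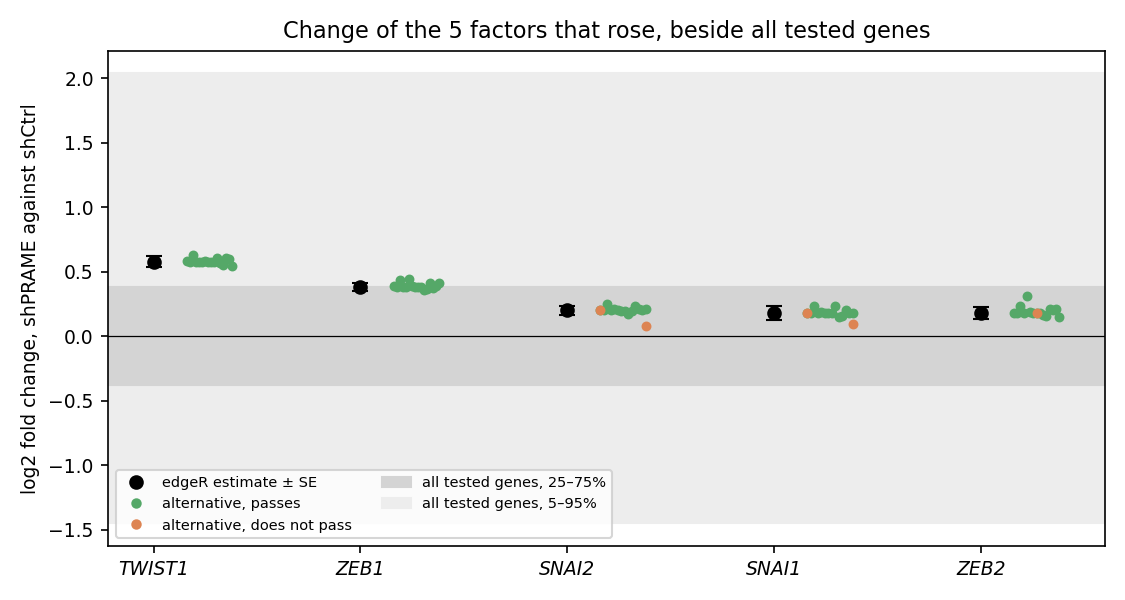
Log2 fold change (shPRAME against shCtrl) of the 5 factors that rose: black points are the edgeR estimates with their SE, and small points the alternative settings, green where the gene passed and orange where it did not. The dark grey band is the interquartile range of all tested genes and the light band a wider range; TWIST1 lies above the dark band, and ZEB2, SNAI1 and SNAI2 lie inside it.

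Levels were compared between genes after division by the length of the longest annotated transcript. In shCtrl, TWIST1 (24.7 ± 0.926 CPM per kilobase) and ZEB1 (24.0 ± 1.00 CPM per kilobase) were highest and did not differ beyond their spread. SNAI2 followed at 18.7 ± 0.810 and SNAI1 at 12.1 ± 0.765 CPM per kilobase, each apart from its neighbours in the order by more than the SDs. ZEB2 (3.24 ± 0.137) and TWIST2 (1.90 ± 0.130) were low. In shPRAME the order was the same, with TWIST1 at 36.9 ± 1.86 CPM per kilobase, ZEB1 at 31.3 ± 0.817, SNAI2 at 21.4 ± 0.124, SNAI1 at 13.7 ± 0.247 and ZEB2 at 3.67 ± 0.172. Of 14006 tested genes with a length, 83.0% had a lower level per kilobase than TWIST1 in shCtrl and 89.0% in shPRAME. The order depends on the length used: with the median length of a gene's annotated transcripts, ZEB1 came before TWIST1 and ZEB2 before SNAI1.

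**Figure D3:**
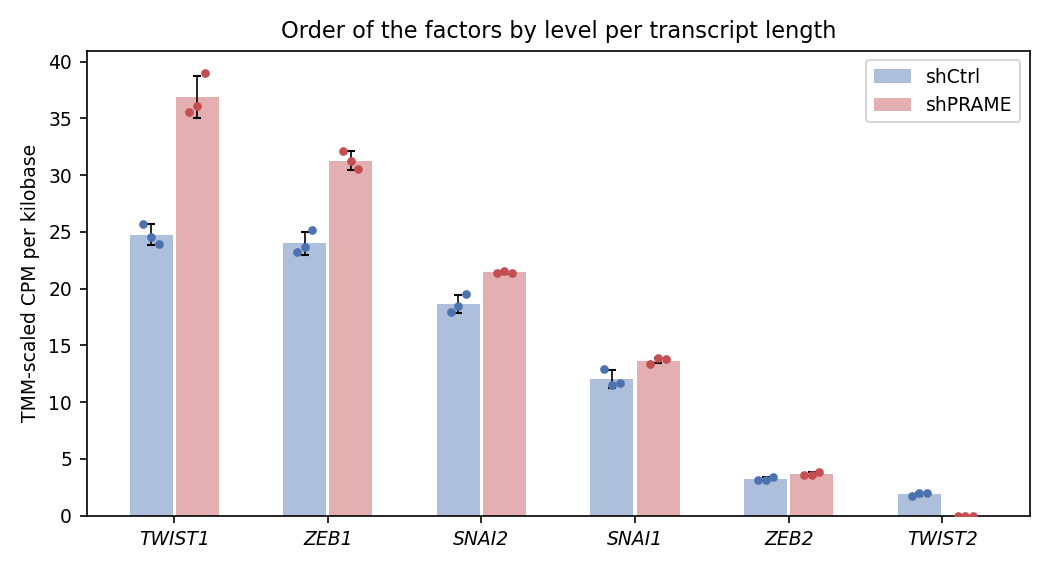
TMM-scaled CPM per kilobase of the longest annotated transcript for the 6 factors, ordered by level in shCtrl; bars are means, error bars SDs, and points the 3 libraries of each group. TWIST1 and ZEB1 lead in both groups, and TWIST2 has no bar in shPRAME.

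Within the TWIST pair the balance went wholly to TWIST1. TWIST2 made up 2.24% ± 0.162 of the summed per-kilobase level of the 6 factors in shCtrl and none in shPRAME, and TWIST1 made up 29.2% ± 1.24 and 34.5% ± 1.29. The ratio of SNAI2 to SNAI1 per kilobase was 1.55 ± 0.148 in shCtrl and 1.57 ± 0.0232 in shPRAME (exact permutation p = 1.00, 2-sided). That of ZEB1 to ZEB2 was 7.32, 7.5 and 7.39 in shCtrl and 9.0, 8.74 and 7.88 in shPRAME. These do not overlap (exact permutation p = 0.1, the smallest that 3 against 3 can give, or 0.3 after adjustment over the 3 ratios examined). The ratio of TWIST1 to ZEB1 was 1.03 ± 0.0786 in shCtrl and 1.18 ± 0.0890 in shPRAME, and the groups overlapped (exact permutation p = 0.2, adjusted 0.3). That ratio depends on the length used: with the median transcript length ZEB1 was the higher of the pair, at 109 CPM per kilobase against 70 for TWIST1 in shCtrl and at 142 against 104 in shPRAME.

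Neighbouring genes were read to see whether a factor moved with its surroundings. For each factor these were the 25 nearest tested genes on each side. Over all tested genes, 37.7% were higher and 36.8% lower in shPRAME. TWIST2 lies near the end of the long arm of chromosome 2, where 35 of 50 neighbours fell and 6 rose, with a median log2 fold change of -0.49. Its nearest tested neighbours fell much less than TWIST2 itself: ASB1, a substrate receptor subunit of ubiquitin ligases, from 49.3 ± 2.09 to 39.8 ± 1.77 CPM, and HDAC4, a class IIa histone deacetylase, from 56.0 ± 1.37 to 33.4 ± 0.569 CPM. TWIST2 also passed with the neighbours' median taken out of the fit (edgeR adjusted p = 3.34e-10). With no count in any shPRAME library, a shift of that size could not have changed the call. Whether the loss of TWIST2 and the fall of its neighbours share a cause was not tested.

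The lncRNA gene LOC100287387 ends 177 bases before TWIST2 (chromosome 2, 238844546 to 238847907) and, like TWIST2, had counts in shCtrl alone. It was chosen after its values were seen and had 10 counts in each shCtrl library and none in shPRAME, at least 10.3-fold lower. TWIST1 had a similar neighbour. The lncRNA gene LOC124901597 (chromosome 7, 19106928 to 19113245), also chosen after its values were seen, shares 199 bases with the TWIST1 annotation. It had 5, 13 and 10 counts in shCtrl and none in shPRAME, at least 9.61-fold lower, while TWIST1 rose. Since the strand setting of the counting was not stated, reads in the shared bases may belong to either gene. Neither lncRNA passed the filter on low counts, so neither was tested.

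Around TWIST1 the neighbours were balanced, with 22 of 50 higher, 21 lower and a median of 0.01. Over all tested genes, 37.7% were higher and 36.8% lower. HDAC9, whose gene body is known to hold enhancers of TWIST1, was the nearest tested gene on one side and fell from 29.9 ± 0.889 to 14 ± 0.224 CPM. POLR1F, an RNA polymerase I subunit gene on the other side, fell from 93.0 ± 1.6 to 79.3 ± 0.524 CPM. TWIST1 thus rose between genes that fell.

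The calls of SNAI1 and SNAI2 did not hold once the median change of the genes around them was taken out. The median log2 fold change of 50 neighbours was 0.08 for SNAI1 (24 higher, 14 lower) and 0.12 for SNAI2 (27 higher, 14 lower). Over all tested genes, 37.7% were higher and 36.8% lower. Both medians were below the 0.18 and 0.20 of the factors themselves. The neighbours were widely scattered, with quartiles of -0.25 and 0.32 for SNAI1 and of -0.15 and 0.42 for SNAI2. The fit takes each median as exact, without that scatter. With the median taken out, SNAI1 stood at 0.10 (edgeR adjusted p = 0.130) and SNAI2 at 0.081 (adjusted p = 0.0537), and neither passed. RNF114 and PEDS1-UBE2V1 flanked SNAI1 and rose by 0.10 and 0.31 on the log2 scale, the second a readthrough gene whose counts are uncertain because it shares exons with its parts. Beside SNAI2, PCMTD1 rose by 0.36 and LOC105375825 by 1.25 on the same scale.

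Around both ZEB genes more neighbours fell than rose, where 37.7% of all tested genes rose and 36.8% fell. ZEB1 had neighbours with a median of -0.06 (16 higher, 22 lower of 50) and ZEB2 neighbours with a median of -0.13 (18 higher, 23 lower of 50), and the ZEB2 value of 0.18 lay within the quartiles of its neighbours, -0.49 and 1.28. With the shift taken out, the log2 fold changes were 0.44 for ZEB1 (adjusted p = 1.00e-09) and 0.31 for ZEB2 (adjusted p = 1.41e-05 by edgeR). Here too the fit takes each median as exact. The flanking tested genes of ZEB2 were QTMAN, which fell from 18.8 ± 0.727 to 14.8 ± 1.57 CPM, and TEX41, a lncRNA gene that rose from 0.113 ± 0.0349 to 0.589 ± 0.0607 CPM. On the side of ZEB1 away from its antisense gene, the uncharacterised LOC105376484 rose from 41.9 ± 1.28 to 60.0 ± 2.35 CPM.

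Antisense RNAs of the ZEB genes gave no passing change. ZEB1-AS1 shares 2031 bases with the ZEB1 annotation and had 154, 144 and 133 counts in shCtrl, against 164, 166 and 168 in shPRAME (log2 fold change 0.17, adjusted p = 0.147 by edgeR). No source used here states whether the counting used strand, so reads in the shared bases may belong to either gene. ZEB2-AS1 had no count in any library.

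**Figure D4:**
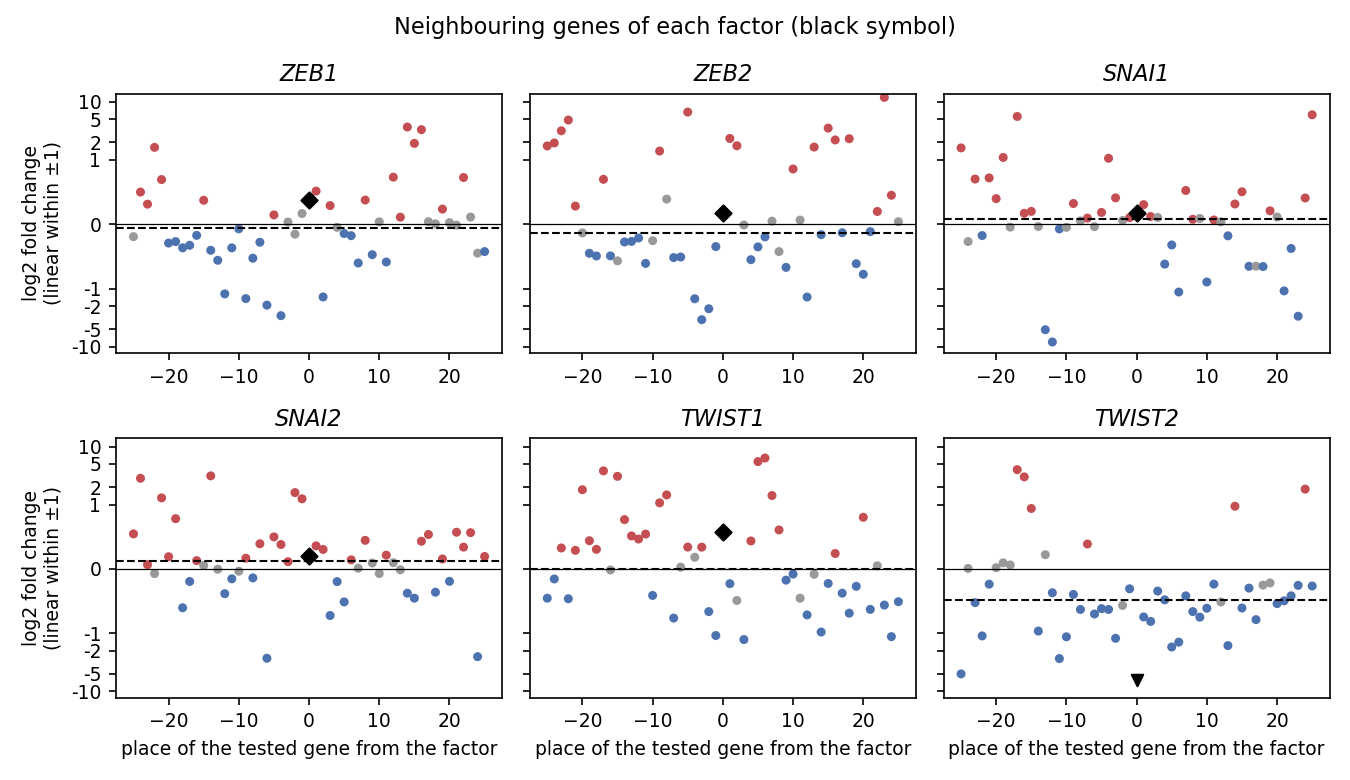
Log2 fold change of the 25 nearest tested genes on each side of each factor, by place along the chromosome (red higher, blue lower, grey not passed); the dashed line is their median and the black symbol the factor. The vertical axis is linear within 1 and logarithmic beyond, TWIST2 is drawn at its bound as a triangle, and its neighbours lie mostly below 0.

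Genes with a like pattern were sought among 12003 other protein-coding genes at a mean of at least 1 CPM. Likeness was the Euclidean distance over the 6 libraries in log2 (CPM + 0.5) centred on each gene, a measure of the change and not of the level. Nearest to ZEB1 were GRB10, an adaptor of receptor tyrosine kinases (distance 0.0386), and INTS2, an Integrator subunit (0.0399). TWIST1 was closest to TRAPPC9 (0.0463) and the proprotein convertase PCSK7 (0.0520), which rose by 0.57 and 0.55 on the log2 scale. For ZEB2 the nearest were ELMO1 (0.0448) and NFKBIL1 (0.0481), for SNAI1 METTL17 (0.0439) and TMEM120B (0.0511), and for SNAI2 MEX3C (0.0270) and MRPL33 (0.0289). TWIST2 had no match as close: its nearest genes, APOL6 (0.101) and OPTN (0.152), fell from 25.4 ± 1.14 to 3.56 ± 0.191 and from 28.2 ± 1.43 to 4.31 ± 0.263 CPM but were not lost. On this scale the added 0.5 CPM compresses the fall of TWIST2.

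Dimer partners of the TWIST proteins and the inhibitors of those partners changed in both directions. TWIST factors bind DNA with E proteins, and ID proteins, which lack a DNA-binding region, hold E proteins away from DNA. The E protein gene TCF12 fell from 219 ± 2.37 to 97.3 ± 3.10 CPM, and TCF3 rose from 72.1 ± 0.964 to 86.8 ± 2.93 CPM. TCF4, the third E protein gene, had no count in shCtrl and 1, 2 and 1 counts in shPRAME, near the detection limit. All 4 ID genes rose: ID1 from 28.1 ± 1.09 to 59.0 ± 1.96 CPM, ID3 from 15 ± 1.24 to 31.6 ± 0.999, ID2 from 3.18 ± 0.146 to 6.01 ± 0.135 and ID4 from 0.185 ± 0.0523 to 2.57 ± 0.263. Of 8 tested genes in the list of bHLH partners and inhibitors, 5 rose, 2 fell and 1 did not pass. Over all tested genes, 37.7% rose and 36.8% fell. The median log2 fold change of the list was 0.59, against 0.01 over all tested genes.

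Of 30 corepressors and coactivators of the ZEB, Snail and TWIST factors, 13 were higher, 9 were lower and 8 missed the threshold (median log2 fold change 0.02), near the 37.7% higher and 36.8% lower of all tested genes. Only 1 of the 30 changed at least 2-fold, where 18.6% of all tested genes did. CTBP1, the corepressor that ZEB proteins recruit, rose from 63.4 ± 0.367 to 74.1 ± 1.49 CPM, while CTBP2 stood at 97.9 ± 3.27 and 93.8 ± 1.11 CPM and did not pass (edgeR adjusted p = 0.0788). HDAC1, a deacetylase of Snail and ZEB complexes, fell from 165 ± 1.71 to 111 ± 1.62 CPM, and the acetyltransferase gene KAT2B fell from 22.8 ± 0.895 to 6.81 ± 0.156 CPM. NSD2, a histone methyltransferase gene linked to TWIST1, rose from 133 ± 1.67 to 244 ± 3.03 CPM, and PRMT5, an arginine methyltransferase gene, from 95.4 ± 1.93 to 132 ± 1.78 CPM.

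Of 29 tested enzymes that modify the proteins or set their stability, 13 rose and 12 fell (median -0.04), again near the shares of 37.7% and 36.8% over all tested genes. GSK3B, the kinase that marks Snail for degradation, rose from 163 ± 4.01 to 379.9 ± 13.4 CPM, and PRKD1, a kinase that phosphorylates Snail, from 14.7 ± 0.377 to 31.9 ± 1.55 CPM. LATS2, a Hippo kinase that acts on Snail, fell from 43.5 ± 0.794 to 23.6 ± 0.820 CPM and the ubiquitin ligase gene HUWE1 from 1127 ± 5.85 to 750.3 ± 12.3 CPM. Protein levels of the factors were not measured.

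Signals known to induce the factors gave 14 of 30 tested genes higher and 12 lower (median 0.07), also near those shares, and 9 higher and 15 lower once the shift of each gene's neighbours was taken out. JAG1, a Notch ligand, rose from 4.84 ± 0.477 to 30.7 ± 0.921 CPM, whereas the receptor gene NOTCH1 fell from 78.4 ± 3.67 to 43.0 ± 1.33 CPM. FGFR1 rose from 22.7 ± 0.752 to 56.3 ± 1.12 CPM. HIF1A, the hypoxia factor subunit, fell from 687 ± 39.7 to 366 ± 3.43 CPM. Among 14 tested genes of other EMT-linked transcription factors 8 rose and 4 fell (median 0.31). Over all tested genes, 37.7% rose and 36.8% fell. SOX4 rose from 11.4 ± 0.223 to 77.4 ± 3.64 CPM and TEAD2 from 7.39 ± 0.186 to 19 ± 0.0900 CPM. ETS1 fell from 234 ± 8.59 to 124 ± 4.48 CPM and SOX9 from 283 ± 6.81 to 196 ± 4.21 CPM.

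**Figure D5:**
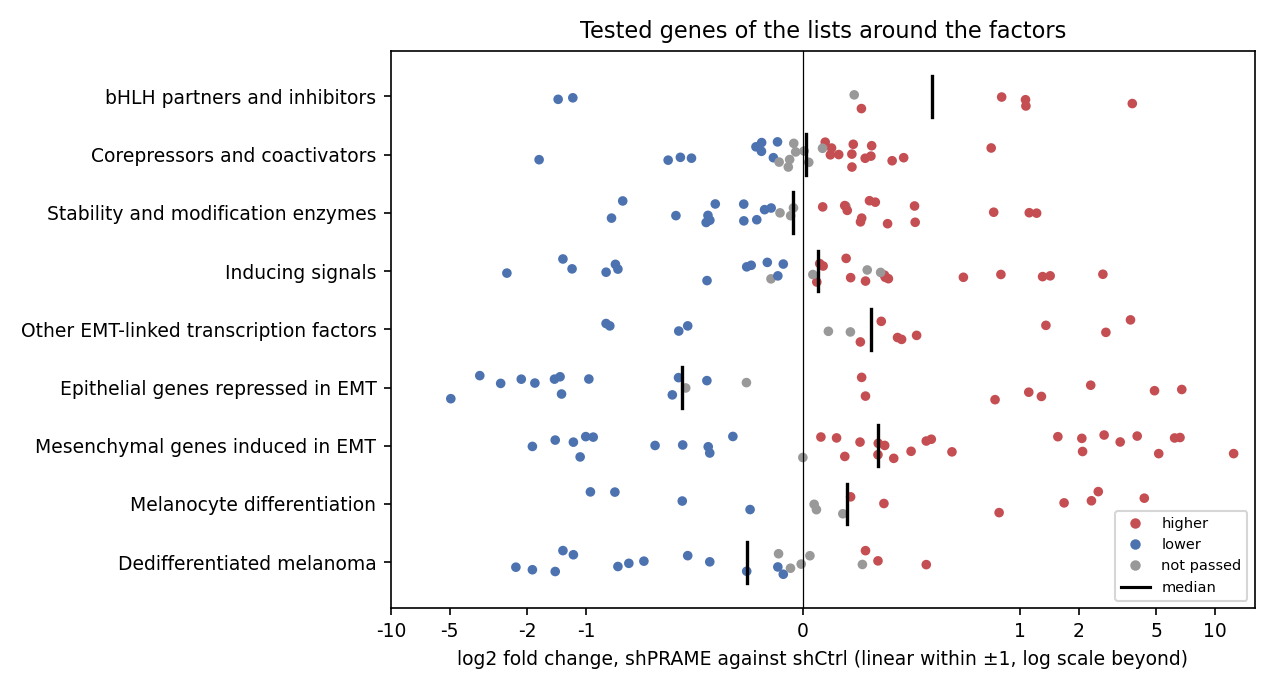
Log2 fold change of each tested gene of 9 lists around the factors (red higher, blue lower, grey not passed) with the median of each list as a black line; the horizontal axis is linear within 1 and logarithmic beyond. Every list drawn holds genes in both directions, and the medians of the epithelial genes and of the dedifferentiated melanoma genes lie furthest below 0, while a gene without counts in a group is drawn at its fitted value, which is no bound.

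Epithelial genes that the factors are known to repress were mostly near or under detection. Of 48 genes, 22 passed the filter on low counts, and 21 had fewer than 10 counts in every library. CDH1 itself had 1 count in 1 shCtrl library and none elsewhere. Of the 22, 12 fell, 8 rose and 2 did not pass, with a median log2 fold change of -0.56. Over all tested genes, 36.8% fell and 37.7% rose. CDS1, which encodes an enzyme of phosphatidic acid use, fell from 7.17 ± 0.620 to 0.232 ± 0.105 CPM and the tight junction gene CLDN1 from 6.41 ± 0.348 to 0.556 ± 0.172 CPM. Desmosome genes split: the cadherin gene DSG2 rose from 90.3 ± 0.840 to 167 ± 2.48 CPM and the desmoplakin gene DSP from 1.11 ± 0.117 to 5.51 ± 0.285 CPM, while JUP, the plakoglobin gene, named after its values were seen, fell from 2.72 ± 0.372 to 1.06 ± 0.0628 CPM. DSG2 was the most abundant gene of the list, whose summed level was 261.3 to 266.0 CPM in shCtrl and 310.3 to 317.1 CPM in shPRAME.

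Of 34 mesenchymal genes tested, 22 rose, 11 fell and 1, VIM, did not pass (median 0.35), against 37.7% higher and 36.8% lower over all tested genes. Of these, 10 rose and 5 fell at least 2-fold, where 18.6% of all tested genes changed that much in either direction while passing. The summed level of the list was nevertheless lower in each shPRAME library, at 19485 to 19694 CPM against 21599 to 21932 CPM in shCtrl. VIM, the intermediate filament vimentin, stood at 4908 ± 23.8 CPM in shCtrl and 4906 ± 93.0 CPM in shPRAME (edgeR adjusted p = 0.981). CDH2, N-cadherin, the counterpart of E-cadherin in mesenchymal cells, rose from 50.2 ± 1.77 to 328 ± 0.512 CPM, and the collagen gene COL6A3 from 9.98 ± 0.0454 to 159 ± 1.32 CPM. S100A4 fell from 372 ± 12.4 to 177 ± 2.25 CPM, and NT5E, the ectoenzyme CD73, from 497 ± 21.2 to 222 ± 4.46 CPM. COL1A1, COL1A2, COL3A1 and PDGFRB of this list are also in the list of fibroblast markers, and fibroblasts are known to express TWIST2. Of 8 such markers 7 were tested, 5 higher and 2 lower, and their summed level was 112.5 to 116.3 CPM in shCtrl and 88.1 to 95.3 CPM in shPRAME. DCN and COL1A2 had no count in shCtrl, where TWIST2 was detected. In shPRAME, DCN had 8, 9 and 16 counts and COL1A2 718, 735 and 704. The part of fibroblast RNA in these results was not tested.

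Genes of the melanoma states that the factors mark did not move as one. Of 14 tested genes of melanocyte differentiation 7 rose and 4 fell (median 0.20). Among 21 tested genes of dedifferentiated melanoma 3 rose and 13 fell (median -0.26). Over all tested genes, 37.7% rose and 36.8% fell. MITF, the master factor of the melanocyte lineage, fell from 44.6 ± 1.38 to 37.7 ± 0.740 CPM, and the endothelin receptor gene EDNRB rose from 35.9 ± 1.75 to 116 ± 2.70 CPM. AXL, a receptor kinase of dedifferentiated cells, fell from 358 ± 4.75 to 265 ± 11.5 CPM, and TGFBI from 1094 ± 21.0 to 223 ± 5.60 CPM. TNC, the matrix protein tenascin C, rose from 2037 ± 33.3 to 2589 ± 21.4 CPM. ZEB1 and TWIST1, tied to the dedifferentiated state, and ZEB2 and SNAI2, tied to the differentiated state, were all higher in shPRAME.

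Markers of leukocytes, endothelial cells and keratinocytes were low apart from a few genes, and which cells expressed those was not tested. Leukocyte markers summed to between 43.0 and 45.4 CPM in shCtrl and between 72.4 and 74.3 CPM in shPRAME, nearly all of it CD68. CD3E and MS4A1 had no count, and all 3 leukocyte markers tested were higher in shPRAME. The endothelial markers summed to at most 0.917 CPM in any library. The keratinocyte markers summed to 27.7 to 29.6 CPM in shCtrl and 23.2 to 24.4 CPM in shPRAME, where KRT10 made up most, and KRT5, KRT1 and TP63 had no count. Melanoma cell markers summed to between 742.0 and 764.0 CPM in shCtrl and between 1024 and 1047 CPM in shPRAME. The largest part was ERBB3, which rose from 322 ± 4.11 to 603 ± 12.3 CPM. SOX10 stood at 266 ± 7.95 and 275 ± 1.48 CPM and did not pass. Of the 5 melanoma cell markers tested, 2 were higher, 2 lower and 1 not passed. Over all tested genes, 37.7% were higher and 36.8% lower.

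Of the RNAs that host or regulate microRNAs of the factors, DNM3OS, the host of miR-199a and miR-214, fell from 117 ± 12.8 to 47.0 ± 3.37 CPM, and MIR34AHG, the host of miR-34a, rose from 2.67 ± 0.0181 to 4.50 ± 0.861 CPM. H19 rose from 1.44 ± 0.107 to 10.6 ± 0.874 CPM and MALAT1, a long nuclear RNA, fell from 3425 ± 101 to 2660.4 ± 18.6 CPM. Of 10 such RNAs in the files, antisense genes included, 5 were tested.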

How the data were processed

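Each deposited file holds raw counts per NCBI gene identifier for 1 library, per the file headers. Tools listed by the submitters' processing notes are fastp, STAR and Salmon, with GRCh38 and hg38 as builds. The counter, annotation and strand setting were not stated. Repeated rows (34 per file) were added to their gene. Symbols and coordinates came from RefSeq (GRCh38.p14, 40789 of 40895 identifiers matched) and lengths from GENCODE release 29. The main test was edgeR 4.0.16 in R 4.3.3 (filterByExpr, TMM, quasi-likelihood test, 2-sided, group as the one term). Adjusted p-values are Benjamini-Hochberg over 15954 genes, with 0.05 as threshold. The code was tested on simulated counts. limma 3.58.1 and DESeq2 1.42.0 served as alternatives. Bounds use 3 counts over a group and cover counting error alone.

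The factors and the gene lists were chosen with earlier results of these data known. Genes named are the 6 factors, PRAME, a set of partners, targets and antisense genes, up to 4 of each list (for both directions, the 2 of lowest adjusted p with a mean CPM of 1 or more), the 2 highest of each marker list, the 2 nearest in pattern to a factor, and its flanking tested genes. Others are named as undetected, or as chosen after their values were seen. All pairs of libraries within a group differed by more than sampling noise. One gene that the rule names is not reported here.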

Additional observations from a re-analysis of the deposited data

How the results depend on the processing

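Over 16 alternative settings, ZEB1, TWIST1, TWIST2 and PRAME kept their direction and passed in each. ZEB1 ranged from a log2 fold change of 0.36 to 0.44, TWIST1 from 0.54 to 0.63 and PRAME from -1.72 to -1.50. Against a minimum fold of 1.2 ZEB2 (0.18, edgeR adjusted p = 1.00), SNAI1 (0.18, adjusted p = 0.991) and SNAI2 (0.20, adjusted p = 1.00) no longer passed, and after removal of the neighbours' median SNAI1 (0.10) and SNAI2 (0.081) did not. Of the 6 factors, 2 were higher in the first setting and 3 in the second. Leaving out single libraries kept all 6 calls, with the largest adjusted p at 0.0455 for SNAI1 without shCtrl replicate 2. Scaling to the library total alone raised the median of all genes by 0.05. Removing ribosomal RNA genes, an alternative chosen after seeing the data, changed no call of a factor.

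Against the minimum fold of 1.2, which asks for more by construction, 3921 of all genes were higher and 3805 lower; corepressors gave 4 higher and 4 lower, stability enzymes 8 and 7, and inducing signals 8 and 6. With the neighbours' median removed, 9 inducing signals were higher and 15 lower, and with at least 1 CPM in 3 libraries 1 bHLH gene was lower; the cause was not tested for the first, and fewer genes were tested in the second. With the median transcript length, ZEB1 was in place 1, TWIST1 in place 2, ZEB2 in place 4 and SNAI1 in place 5 of the order per kilobase. Nothing in the labels pairs the libraries, and same-numbered libraries deviated with correlations of -0.08, -0.15 and -0.12. With the replicate block ZEB1 stood at 0.38, ZEB2 at 0.18, SNAI1 at 0.18, SNAI2 at 0.20 and TWIST1 at 0.58, and each of the 6 factors still passed. At these depths a gene at 0 counts in a library may hold up to 0.0973 CPM.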
